A study of Mus musculus with 4 samples.

Results

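The renin-angiotensin system genes examined here were Ace, Agt, Agtr1a, Agtr2, Enpep, Anpep, Lnpep, Atp6ap2 and Agtrap, chosen by name. Of these 9 genes, 6 were listed in both deposited tables, Agt and Agtr1a were listed at E18 only, and Agtr2 was listed in neither and was not analysed here. The tables together listed 20194 genes. The data were RNA sequencing read counts of brain endothelial cells from C57BL/6 mouse embryos at embryonic day 15 (E15) and 18 (E18). At each stage a wild-type (WT) library stood beside a library from UCP2f/f;Tie2-cre embryos (ECKO), in which Cre recombinase driven by the Tie2 promoter acts on a floxed Ucp2 gene, which encodes a mitochondrial carrier protein. The Tie2 promoter is active in endothelial cells and also in most blood cells. The labels do not say whether the WT embryos carried the floxed allele or whether embryos were pooled. The series' design text speaks of samples in triplicate, whereas each of the 4 groups here held 1 library, so every ratio below compares libraries, and intervals account for the error of counting and nothing else.

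Angiotensinogen, the product of Agt, is cut by renin to angiotensin I, and angiotensin-converting enzyme, the product of Ace, then releases angiotensin II. Angiotensin II raises vascular tone through the type 1 receptor (Agtr1a), while the type 2 receptor (Agtr2) often opposes it. Aminopeptidases shorten the peptide stepwise, first aminopeptidase A (Enpep) and then aminopeptidase N (Anpep). In the brain, angiotensinogen comes largely from astrocytes, Ace sits on the endothelial surface, and Enpep and Anpep are known for their expression in pericytes.

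The libraries held 15542930 to 21992660 reads in genes. All 12 pan-endothelial markers had reads in every library, with summed levels of 17103 to 21873 CPM (counts per 1e+06 reads, scaled with TMM factors). All 13 mural markers also had reads in every library. The mural sum was 7572 CPM in WT and 5064 CPM in ECKO at E15, and 10303 and 12675 CPM at E18. Over the 8 of 10 fibroblast and meningeal markers with values in all libraries, the sum was 306 CPM in WT and 155 CPM in ECKO at E15, and 232 and 243 CPM at E18, with Pdgfra at 0 in both ECKO libraries and Dcn at 0 in WT at E18. The sum of 9 microglia and macrophage markers was 563 CPM in WT and 268 CPM in ECKO at E15, and 39.0 and 66.9 CPM at E18, and that of 5 choroid plexus epithelium markers was 24.0 and 2.83 CPM at E15, and 3.50 and 15.6 CPM at E18, with Ttr at 0 in WT at E18. Ucp2 had 4285 reads in WT and 2666 in ECKO at E15, and 6696 and 3296 at E18. The E18 libraries also differed in sex-specific transcripts: Ddx3y, on the Y chromosome, had 5826 reads in WT and 0 in ECKO, and Xist had 0 and 547. Genotype and sex therefore cannot be told apart at E18, whereas Xist had 2549 and 2109 reads at E15. The WT libraries also differed in Xist between stages, with 2549 reads at E15 and 0 at E18. Stage and sex therefore cannot be told apart in the WT pair, and the additive fit uses these same libraries. In ECKO both stages had Xist reads (2109 and 547), but the scaled level was 4.80-fold lower at E18 (4.37 to 5.28). Ddx3y had values at E18 only.

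Among the listed genes, the type 1 receptor-associated gene Agtrap was higher in the ECKO library at both stages, Ace was higher in ECKO at E15 and lower at E18, and Agtr1a had reads in the WT library at E18 but none in ECKO. Anpep, Enpep and Ace were higher at E18 than at E15, and Atp6ap2 was the most abundant member in all 4 libraries. The genotype and stage comparisons share libraries, so they are not independent of one another.

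Compared per kilobase of exon, Atp6ap2 stood at 55.2 to 76.2 CPM per kb, and every other member lay between 0 and 8.84. Atp6ap2 encodes the prorenin receptor, which is also an accessory subunit of the vacuolar proton pump. In the WT library at E15 the order of the remaining levels was Enpep (3.88 CPM per kb), Agtrap (2.95), Anpep (2.19), Lnpep (0.701) and Ace (0.455). There the intervals of Agtrap and Anpep overlapped, as did those of Lnpep and Ace. In the ECKO library at E15, Agtrap (7.70 CPM per kb) stood above Enpep (3.69), followed by Anpep (1.37) and Ace (1.30), whose intervals overlapped, and Lnpep (0.783). In the WT library at E18, Enpep (8.25 CPM per kb) and Anpep (7.60) had overlapping intervals and were followed by Ace (3.58) and Agtrap (2.86), whose intervals also overlapped. Agtr1a (1.57 CPM per kb) and Agt (1.07) overlapped too, and Lnpep (0.375) was lowest. In the ECKO library at E18, Agtrap (8.84 CPM per kb) and Anpep (8.71) overlapped and were followed by Enpep (7.17), Ace (2.01) and Lnpep (0.515), with Agt and Agtr1a at 0. Agtrap thus ranked below Enpep in both WT libraries and above it in both ECKO libraries. Exon length here is that of all annotated exons of a gene joined, so a gene expressed from a short isoform is understated.

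**Figure D1:**
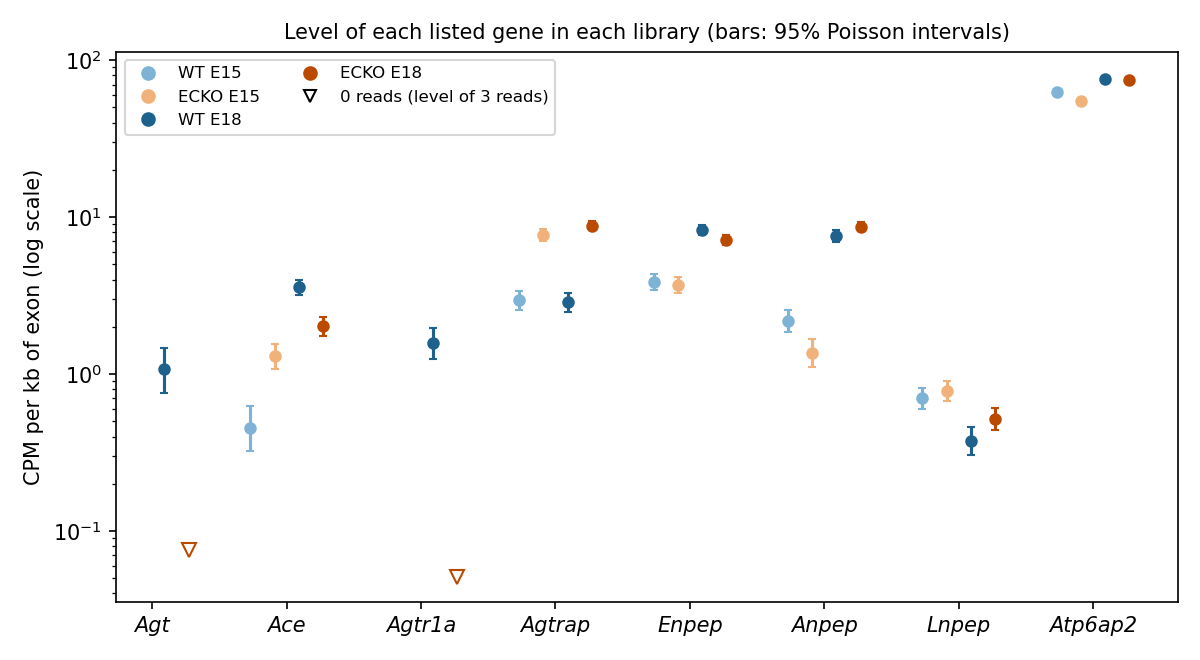
Level of each listed gene per kilobase of exon (CPM per kb, log scale) in the WT and ECKO libraries at E15 and E18; points are single libraries, bars are 95% Poisson intervals, and open triangles mark the level of 3 reads where a gene had 0. Atp6ap2 lies above all other genes in every library (55.2 to 76.2 CPM per kb), and the ECKO points of Agtrap (7.70 and 8.84) lie above its WT points (2.95 and 2.86).

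The ligand precursor gene Agt (ENSMUSG00000031980, chromosome 8, 124556534 to 124569706) had values at E18 only. It had 37 reads in the WT library and 0 in ECKO, at least 14.2-fold lower in ECKO against a floor of 3 reads. With 37 reads over both libraries it fell short of the 50 reads asked of a gene in a comparison, and no call was made. Of 10 astrocyte and radial glia markers listed at E18, 6 were lower in ECKO and 4 higher, with reads in both libraries for each. Gfap was called lower (3.72 CPM in WT and 0.947 in ECKO). Slc1a3 (36.9 and 22.6), Aldh1l1 (12.2 and 6.25), Aldoc (11.1 and 7.34), Fabp7 (25.3 and 18.7) and Pax6 (2.08 and 0.473) were also below their WT levels. Sox9 (107 and 126), Hes5 (1.09 and 2.13), Aqp4 (2.30 and 2.46) and Gja1 were above theirs. The summed level of the 8 markers with values in all libraries, most of it from Gja1 (457 and 459 CPM), was 652 CPM in WT and 642 CPM in ECKO. The part of astrocyte content in the difference of Agt was not tested. In these bulk libraries fewer cells of a type and less RNA per cell cannot be told apart. Of 11606 genes with at least 37 reads in the WT library at E18, 106 (0.913%) had 0 in ECKO, and of 11632 with at least 37 in ECKO, 58 had 0 in WT.

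Angiotensin-converting enzyme is a peptidase of the endothelial surface that makes angiotensin II and degrades bradykinin. Its gene Ace (ENSMUSG00000020681, chromosome 11, 105967945 to 105989964) had 39 reads in WT and 117 in ECKO at E15, and 346 and 225 at E18. These were 2.40 and 6.89 CPM at E15, and 18.9 and 10.7 CPM at E18, so the lowest level was that of WT at E15 and the highest that of WT at E18. The ECKO library stood 2.87-fold above WT at E15 (95% interval 1.98 to 4.23) and 1.78-fold below it at E18 (1.50 to 2.11). The first difference passed the 2-fold rule on the scale with a pseudocount of 1 CPM (log2 1.21) and the second did not (log2 -0.77). With a pseudocount of 5 CPM the E15 call was lost (log2 0.68). From E15 to E18, Ace was 7.87-fold higher in WT (5.64 to 11.3) and 1.55-fold higher in ECKO (1.23 to 1.95), and only the WT pair was called. The direction of the genotype ratio thus differed between the stages, with both intervals clear of 1, but with 1 library per group that difference could not be tested.

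The upstream sequence of Ace is shown because its level moved most between the WT stages. RefSeq (GRCm38.p6) gives Ace a pair of start sites, an upstream start, known as that of the somatic enzyme, and one within the gene, and the counts per gene do not separate their transcripts. The 250 bases before the upstream start (chr11:105967698-105967947, plus strand) are printed 5′ to 3′ with motifs on either strand in capitals, namely the TATA box as TATAAA, the GC box as GGGCGG, the CCAAT box as CCAAT and the E-box as CACGTG.
Ace: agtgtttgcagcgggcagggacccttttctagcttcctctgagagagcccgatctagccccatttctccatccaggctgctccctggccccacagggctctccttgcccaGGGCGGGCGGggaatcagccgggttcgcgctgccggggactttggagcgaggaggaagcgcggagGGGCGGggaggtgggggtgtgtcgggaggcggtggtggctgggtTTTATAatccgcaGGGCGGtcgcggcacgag
These letters held TATAAA, read on the other strand, 31 bases before the start and 4 copies of GGGCGG, an overlapping pair among them. Of 32851 mouse promoter windows of the same length, 12.4% held TATAAA and 32.7% held GGGCGG on either strand.

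The type 1 receptor is the main signalling receptor for angiotensin II. Agtr1a (ENSMUSG00000049115, chromosome 13, 30336441 to 30382867) had values at E18 only, with 80 reads in WT (4.37 CPM) and 0 in ECKO. It was at least 30.8-fold lower in ECKO against a floor of 3 reads and was called lower (log2 -2.43). The gene passed the filter through its WT reads alone, so it could not enter without differing. Agtr1a is known in the brain vasculature from mural cells. Of the 13 mural markers at E18, 8 were higher in ECKO and 5 lower, 0 of them past 2-fold, and most of their sum came from Rgs5 (7204 CPM in WT and 9125 in ECKO). The part of mural cell content in the difference of Agtr1a was not tested. Of 10150 genes with at least 80 reads in the WT library at E18, 14 (0.138%) had 0 in ECKO, 9 of them outside X and Y. Of 10297 with at least 80 reads in ECKO, 11 had 0 in WT. The call was lost with a pseudocount of 5 CPM (log2 -0.91), and a filter at 5 CPM removed the gene.

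Agtrap (ENSMUSG00000029007, chromosome 4, 148077061 to 148088031) encodes a membrane protein that binds the type 1 receptor and promotes its internalization. It had 203 reads in WT and 554 in ECKO at E15, and 222 and 791 at E18. The WT libraries lay at 12.5 and 12.1 CPM and the ECKO libraries at 32.6 and 37.4 CPM, so both ECKO values were above both WT values. The ECKO library was 2.61-fold higher at E15 (2.22 to 3.08) and 3.09-fold higher at E18 (2.66 to 3.60), and both were called (log2 1.32 and 1.55). Between stages the ratios of Agtrap were near 1: the E18 level was 0.970 of that at E15 in WT (0.798 to 1.18) and 1.15-fold higher in ECKO (1.03 to 1.28).

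In an additive fit of stage and genotype to the 4 libraries, Agtrap had a genotype coefficient of 1.50 on the log2 scale and did not pass edgeR's quasi-likelihood test (unadjusted p = 0.000452, Benjamini-Hochberg adjusted p = 0.404 over 13406 genes), although it was higher in ECKO at both stages. Of the 6 members tested for genotype, 0 passed, and 1 had an unadjusted p under 0.05. The test called 0.0224% of all genes higher and 0.0% lower. With DESeq2's Wald test on the same design, Agtrap passed (adjusted p = 0.0274), and over the alternatives its adjusted p ran from 0.0274 to 0.643. This fit treats the stages as replicates of the genotype effect, leaves 1 residual degree of freedom, and does not measure the spread between embryos.

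The upstream sequence of Agtrap is shown because it alone of the members differed in the same direction by over 2-fold at both stages. The 250 bases before its RefSeq start (GRCm38.p6, chr4:148088065-148088314, minus strand, printed 5′ to 3′ on the gene's strand) carry capitals at the same motifs.
Agtrap: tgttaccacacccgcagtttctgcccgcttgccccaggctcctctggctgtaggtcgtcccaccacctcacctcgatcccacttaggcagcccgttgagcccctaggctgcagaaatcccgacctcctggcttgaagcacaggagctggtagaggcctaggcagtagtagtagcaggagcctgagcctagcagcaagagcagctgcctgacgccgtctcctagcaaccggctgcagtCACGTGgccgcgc
The letters CACGTG, a palindrome known as an E-box, began 13 bases before the start. They were found in 6.02% of the 32851 windows, and among the 8 members with a window in this one alone. The other motifs searched were not among its letters.

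Aminopeptidase A removes the first residue of angiotensin II. Its gene Enpep (ENSMUSG00000028024, chromosome 3, 129269175 to 129332720) had 296 reads in WT and 295 in ECKO at E15, and 710 and 713 at E18. At 18.2 and 17.4 CPM the E15 libraries overlapped within counting error (ECKO over WT 0.953, interval 0.808 to 1.12). At E18 the levels were 38.8 and 33.8 CPM, with ECKO 1.15-fold lower (1.03 to 1.28). Both E18 libraries lay above both E15 libraries, by 2.13-fold in WT (1.86 to 2.44) and 1.94-fold in ECKO (1.69 to 2.23). The WT difference was called (log2 1.05) and the ECKO difference lay just under the rule (log2 0.92). Scaling to library totals alone, or a pseudocount of 5 CPM, ended the WT call. The stage coefficient of 1.02 (log2) in the additive fit did not pass edgeR's test (adjusted p = 0.0807, range over the alternatives 0.0663 to 0.115).

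Aminopeptidase N, also called CD13, cuts the shortened peptide further and is a marker of pericytes and of some fibroblasts. Its gene Anpep (ENSMUSG00000039062, chromosome 7, 79821803 to 79861059) had 147 reads in WT and 96 in ECKO at E15, and 575 and 761 at E18. These were 9.06 and 5.66 CPM at E15 and 31.4 and 36.0 CPM at E18, and the stages did not overlap. From E15 to E18 it was 3.47-fold higher in WT (2.89 to 4.19) and 6.37-fold higher in ECKO (5.15 to 7.96), called in both (log2 1.69 and 2.48). Anpep rose by a stage coefficient of 2.23 (log2) in the additive fit and alone of the 6 members tested passed edgeR's test of stage (adjusted p = 0.0278, range over the alternatives 2.58e-05 to 0.0486). That test called 0.91% of 13406 genes higher at E18 and 0.433% lower. In the genotype comparison ECKO was 1.60-fold below WT at E15 (1.23 to 2.09) and 1.15-fold above it at E18 (1.03 to 1.28), neither past 2-fold. The summed markers of mural cells, of fibroblasts and meninges, of microglia and macrophages, and of choroid plexus epithelium were likewise each lower in ECKO at E15 and higher at E18. Within the mural list, 11 of 13 markers were lower in ECKO at E15 and 5 of 13 at E18. Within the fibroblast and meningeal list, 6 of 8 were lower at E15 and 5 of 9 at E18. That list's sum at E18 was only slightly higher in ECKO (232 CPM in WT and 243 in ECKO), although most of its markers were lower.

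Per 1000 reads of the 13 mural markers, Anpep had 1.20 reads in WT and 1.12 in ECKO at E15, and 3.05 and 2.84 at E18. On this ratio the E18 libraries lay above those of E15. Per 1000 reads of the 8 fibroblast and meningeal markers, Anpep had 29.6 reads in WT and 36.5 in ECKO at E15, and 135 and 148 at E18, so ECKO was the higher at both stages. Per 1000 pan-endothelial reads it had 0.530 and 0.290 at E15, and 1.47 and 1.65 at E18, the same order as its CPM. The order of the genotypes for Anpep thus varied with the marker list, while on all 3 ratios both E18 libraries lay above both E15 libraries. No intervals were taken for these ratios, which at E15 rest on 147 Anpep reads in WT and 96 in ECKO. Whether the order of the genotypes exceeds counting error was not tested. Enpep had 2.41 and 3.43 reads per 1000 mural reads at E15, and 3.77 and 2.66 at E18, an order of genotypes that changed with stage. On this ratio Enpep was higher at E18 in WT and lower at E18 in ECKO. Most mural reads in ECKO were those of Rgs5 (55530 of 85970 at E15 and 192751 of 267735 at E18). Rgs5 itself was 2.79-fold higher at E18 in ECKO, so the mural ratios there largely follow 1 gene. Per 1000 pan-endothelial reads, and per 1000 fibroblast and meningeal reads, Enpep was higher at E18 in both genotypes. Per 1000 reads of the 12 pan-endothelial markers, Ace had 0.141 reads in WT and 0.353 in ECKO at E15, and 0.885 and 0.487 at E18, the same order as its CPM. Per 1000 mural reads Ace had 0.317 and 1.36 at E15, and 1.84 and 0.840 at E18, so in ECKO it was lower at E18. Per 1000 fibroblast and meningeal reads it had 7.84 and 44.5 at E15, and 81.4 and 43.8 at E18, nearly level between stages in ECKO. The part of mural, fibroblast or other cell content in the differences of Enpep, Anpep and Ace was not tested.

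**Figure D2:**
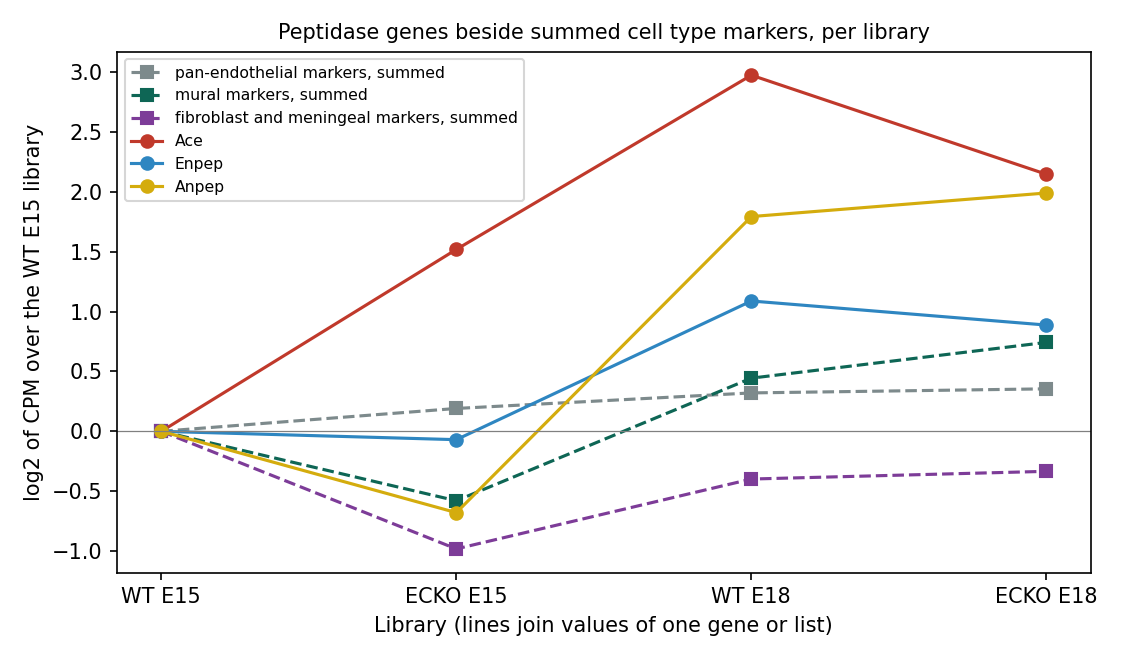
Log2 of the CPM of Ace, Enpep and Anpep over their own level in the WT library at E15 (solid lines), beside the summed CPM of pan-endothelial, mural, and fibroblast and meningeal markers (dashed lines), for single libraries. Anpep and the mural sum are both lower in ECKO at E15 (5.66 against 9.06 CPM, and 5064 against 7572 CPM), whereas Ace is highest in the WT library at E18 (18.9 CPM).

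The upstream sequence of Anpep is shown because the gene passed the test of stage. The 250 bases before the RefSeq start (GRCm38.p6, chr7:79848211-79848460, minus strand, printed 5′ to 3′ on the gene's strand) lie within the gene's annotated span, which extends further upstream to 79861059.
Anpep: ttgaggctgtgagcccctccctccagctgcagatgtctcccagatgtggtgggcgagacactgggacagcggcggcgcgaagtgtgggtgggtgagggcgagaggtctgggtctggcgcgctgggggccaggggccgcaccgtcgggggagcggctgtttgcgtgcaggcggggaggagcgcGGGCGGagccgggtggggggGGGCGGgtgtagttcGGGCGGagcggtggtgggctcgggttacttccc
They held GGGCGG 3 times and none of the other motifs searched. The GC content of this window was 72.8%, against a median of 52.4% over all windows.

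Insulin-regulated aminopeptidase, the product of Lnpep, binds angiotensin IV and travels with glucose transporter vesicles. Lnpep (ENSMUSG00000023845, chromosome 17, 17527723 to 17624489) had 161 reads in WT and 188 in ECKO at E15, and 97 and 154 at E18. At 9.92, 11.1, 5.30 and 7.29 CPM in that order, both E18 libraries lay below both E15 libraries. The E18 level was 1.87-fold lower in WT (1.45 to 2.43) and 1.52-fold lower in ECKO (1.22 to 1.89), neither past 2-fold, and the stage coefficient of -0.75 did not pass edgeR's test (adjusted p = 0.399, range over the alternatives 0.395 to 0.670). ECKO stood 1.12-fold above WT at E15 (0.900 to 1.39) and 1.38-fold above it at E18 (1.06 to 1.79).

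Atp6ap2 (ENSMUSG00000031007, chromosome X, 12587801 to 12617049) had 2653 reads in WT and 2451 in ECKO at E15, and 3651 and 4164 at E18. The ECKO level was 1.13-fold lower at E15 (1.07 to 1.20) and 0.988 of WT at E18 (0.945 to 1.03), where the libraries differed in sex-specific transcripts. For counting error alone, its interval at E18 bounds the difference between these libraries to within 1.06-fold lower or 1.03-fold higher. The interval does not cover the choice of scaling: centring by exon length moved the log2 ratio from -0.02 to -0.10, outside it. From E15 to E18 this X-linked gene was 1.22-fold higher in WT (1.16 to 1.28), where the libraries also differed in Xist, and 1.37-fold higher in ECKO (1.30 to 1.44). Among the members it varied least over the 4 libraries on the ratio scale, and it did not pass the test of stage (edgeR, coefficient 0.37, adjusted p = 0.249, range over the alternatives 0.260 to 0.306).

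**Figure D3:**
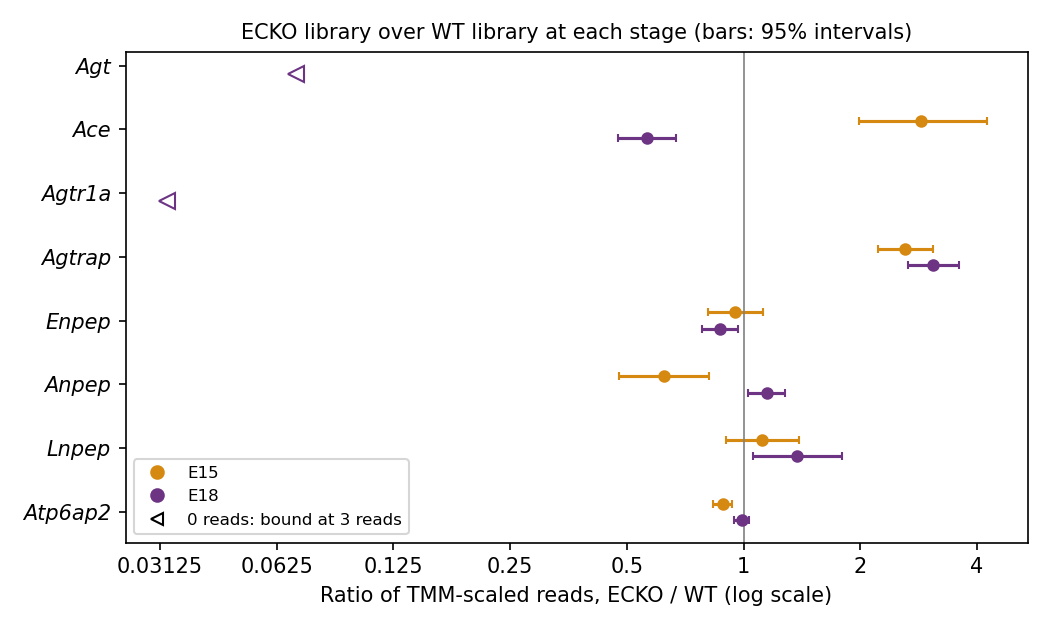
Ratio of TMM-scaled reads, ECKO over WT (log scale), for each listed gene at E15 and E18; points are pairs of single libraries, bars are 95% Clopper-Pearson intervals, and open triangles mark the bound where ECKO had 0 reads. Agtrap lies right of 1 at both stages (2.61 and 3.09), and Ace lies right of 1 at E15 (2.87) and left of it at E18 (0.563).

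Set against all genes, 2 of the 6 members measured at E15 were called higher in ECKO (Ace and Agtrap) and 0 lower, where 3.54% of 12633 genes were called higher and 3.17% lower. The median log2 ratio of the 6 was 0.04, beside 0.00 over all genes tested. At E18, 1 member was called higher (Agtrap) and 1 lower (Agtr1a), where 2.93% of 12349 genes were called higher and 3.98% lower, and 7 of the 8 listed members entered. From E15 to E18 in WT, 3 of 6 were called higher (Ace, Enpep and Anpep) and 0 lower, with 4.0% and 6.07% of 12515 genes. In ECKO, 1 of 6 was called higher (Anpep) and 0 lower, with 5.4% and 9.39% of 12465 genes. The median log2 ratio between stages was 0.67 in WT and 0.50 in ECKO for these 6, beside 0.00 and 0.01 over all genes tested. The members were chosen with earlier results of these data known, so these shares describe them and support nothing further.

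**Figure D4:**
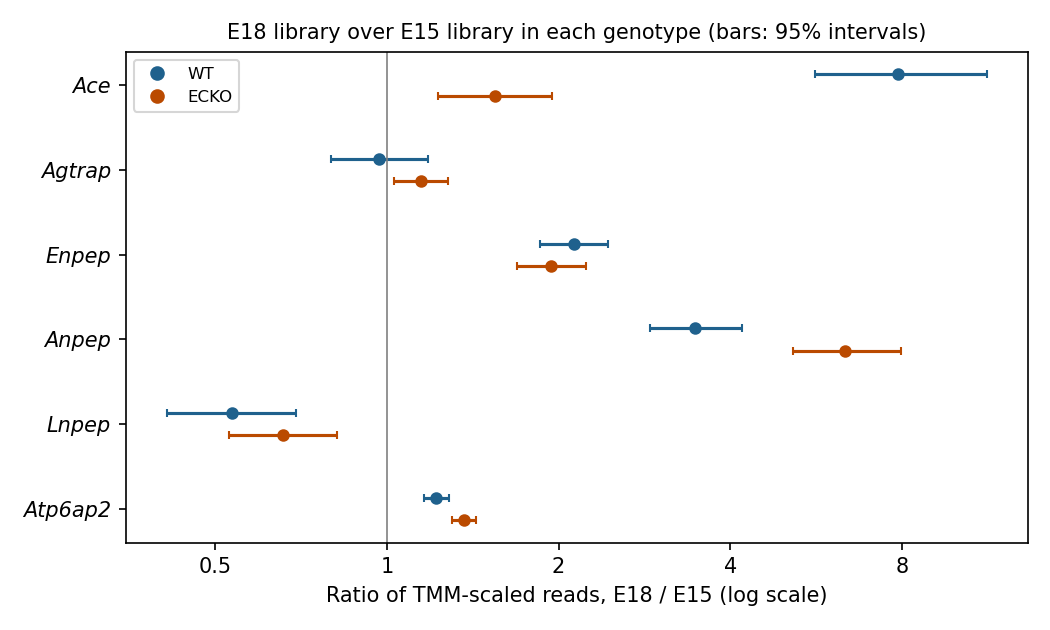
Ratio of TMM-scaled reads, E18 over E15 (log scale), for the 6 genes listed in both tables, in WT and in ECKO; points are pairs of single libraries and bars are 95% Clopper-Pearson intervals. Anpep (3.47 and 6.37) and Enpep (2.13 and 1.94) lie right of 1 in both genotypes and Lnpep left of it (0.534 and 0.658), while Ace is far higher in WT (7.87) than in ECKO (1.55).

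Of 16 other genes of the pathway, 8 had values: the peptidases Cma1, Ctsa, Cpa3, Nln, Thop1, Prep and Prcp and the receptor gene Mas1. The renin genes Ren1 and Ren2, and Mme, Cma2, Ctsg, Klk1, Agtr1b and Mrgprd, were not analysed here.

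Mas1 had 18 reads in WT and 2 in ECKO at E15, and 8 and 0 at E18, too few for a comparison. It overlaps the antisense RNA gene Airn, and the sources used here do not say whether strand was used in counting. Prcp, a lysosomal carboxypeptidase that also cuts angiotensin II, was the pathway gene with the most reads, from 8809 in WT at E15 to 15179 in ECKO at E18. Prep, Prcp, Nln, Thop1 and Ctsa differed by at most 1.22-fold between genotypes at either stage.

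The mast cell protease genes of the pathway had more reads in the ECKO libraries. Cpa3, carboxypeptidase A of mast cells, had 11 reads in WT and 114 in ECKO at E15 (9.91-fold higher, 5.33 to 20.4), and 0 and 252 at E18 (at least 72.8-fold higher against a floor of 3 reads). Of the pathway genes with values Cpa3 alone was called between genotypes (1 of 6 measured at each stage, 0 lower), where 3.54% of all genes were called higher at E15 and 2.93% at E18. It passed the filter through its ECKO level alone at both stages (0.678 CPM in WT at E15), so it could not enter without being higher there. Cma1, mast cell chymase, which can also make angiotensin II, had 0 reads in both WT libraries and 35 and 7 in the ECKO libraries at E15 and E18. Of 7 mast cell markers, both of these among them, 6 were listed at E15, 3 with reads in WT and all 6 in ECKO, and 5 at E18, where Kit alone had reads in WT and all 5 had reads in ECKO. Their summed level, most of it from Kit in every library, was 124 and 142 CPM at E15 and 138 and 136 CPM at E18 for WT and ECKO, and the part of mast cell content in these differences was not tested. In the additive fit Cpa3 had a genotype coefficient of 5.11 (log2) and did not pass edgeR's test (adjusted p = 0.772, range over the alternatives 0.00142 to 1.00, the lowest with DESeq2).

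Patterns over the 4 libraries were compared with 11163 genes that had at least 200 reads, by the distance between centred log2(CPM + 1) profiles. The 3 genes nearest to Ace were Ptgs2, an inducible prostaglandin synthase, at a distance of 0.19, then Phlda1 (0.29) and Dhx58 (0.36). Ptgs2 had 49 reads in WT and 148 in ECKO at E15, and 442 and 241 at E18. Like Ace, it was lowest in WT at E15 and highest in WT at E18. Nearest to Enpep were Bst2 (0.04), Chpf2 (0.06) and Zbtb44 (0.06), and nearest to Anpep were Gpc3 (0.19), Igfbp5 (0.31) and Bcan (0.31). Gpc3 had 592 and 376 reads at E15 and 1826 and 2609 at E18 for WT and ECKO. With 4 libraries these distances only describe the libraries, and why profiles were alike was not tested.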

How the data were processed

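The authors deposited a table per stage with raw read counts per Ensembl gene of the ECKO and WT library, per the file headers. The deposited normalized values, judged from the numbers themselves, are CPM, that is counts scaled to the library total with 0 set to 0.5 read. They served only to check totals. Software listed in the submitters' processing notes, with no role given, was HTSeq 0.6.0, TopHat2 2.0.12 and Bowtie2 2.2.3, with mm9 as the build. Of 20143 gene identifiers found in GENCODE M21 (GRCm38), 18140 (90.1%) had identical coordinates in the tables, so coordinates are read as GRCm38. None of the listed members overlaps another listed gene.

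TMM factors (edgeR 4.0.16) came from 16181 genes in both tables. A pseudocount of 1 CPM was added before taking log2 ratios, so differences between low values are understated. A gene needed 50 reads over a pair of libraries and 1 CPM in either, and was called past 2-fold. Folds and their exact Clopper-Pearson 95% intervals are ratios of scaled counts without the pseudocount. Where a library had 0 reads the floor was 3 reads per library. Without replicates there is no p-value for these ratios. The additive test used edgeR's glmQLFit and glmQLFTest with stage and genotype, on genes reaching 1 CPM in 2 or more libraries, and Benjamini-Hochberg adjustment at 0.05; DESeq2 1.42.0 was an alternative. Procedures were tested on data simulated with counting error alone. That test did not cover variation between embryos or genes at low levels. Genes named are all members, the listed genes of a fixed pathway list, and the 3 nearest patterns to Ace, Enpep and Anpep; Agt, also planned, is not in both tables. A further gene of the planned pathway list is not reported here, so counts over the other pathway genes do not cover that whole list. Members and lists were chosen with earlier results of these data known. Upstream sequences are from RefSeq (GRCm38.p6), which held windows for 8 of 9 members; Agtr1a had none.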

Additional observations from a re-analysis of the deposited data

Results flagged for a closer look

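The genotype ratio of Ace and that of Anpep pointed in opposite directions at the 2 stages, with intervals clear of 1 each time. The log2 ratio of ECKO to WT was 1.21 at E15 and -0.77 at E18 for Ace, and -0.60 at E15 and 0.19 at E18 for Anpep. With 1 library per group, the difference between the stages was not tested. Of 8 marker lists, 4 changed order in the same way as Anpep: the summed level had a log2 ratio of -0.58 at E15 and 0.30 at E18 for mural markers, -0.98 and 0.06 for fibroblast and meningeal, -1.07 and 0.78 for microglia and macrophage, and -3.08 and 2.16 for choroid plexus epithelium markers, and their part in it was not tested. The lists of pan-endothelial, astrocyte and radial glia, and mast cell markers had sums on the side of Ace at E15, with log2 ratios of 0.19, 0.23 and 0.18, and of 0.03, -0.02 and -0.08 at E18. Within the pan-endothelial list, though, 3 of 12 markers were higher in ECKO at E15 and 9 lower. At E18, 5 of these 12 were higher and 7 lower. Within the astrocyte and radial glia list, 6 of 9 were higher and 3 lower at E15, and 4 of 10 higher and 6 lower at E18. The mast cell sum came mostly from Kit, and at E18 4 of 5 mast cell markers were higher in ECKO and 1 lower. Neuronal markers, the remaining list, had log2 ratios of -0.93 at E15 and -0.09 at E18. The E18 libraries differed in sex-specific transcripts, which cannot be told apart from genotype.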

How the results depend on the processing

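With a pseudocount of 5 CPM, 1 member in place of 2 was called between genotypes at E15 (Agtrap remained, Ace did not) and 1 in place of 2 at E18, where a filter at 5 CPM also left 1 of 2 and no filter gave 3, with Agt called lower as well. In the test of genotype, DESeq2 passed 1 member (Agtrap) where edgeR passed 0; over all genes it called 44 in place of 3, and for stage 713 in place of 180, while without a filter edgeR called 0 and 92. Counts of members called between stages stayed within 1.5 times of those reported under every alternative run. Of 231 alternative values of single members 0 were labelled reversed and 8 moved by more than their counting error. A ratio could be labelled reversed only if it was called in the main setting. Settings that change only which genes enter leave a member's ratio as it was, so those values could not be labelled moved. Coefficients of the additive fit were never given that label either. The share that moved is therefore understated. A gene with 0 reads in a library has an open interval and could not be labelled moved. Agtr1a, at log2 -2.43 and at -0.91 with a pseudocount of 5 CPM, is therefore not among the 8. Scaling to library totals alone shifted the median of all genes between WT stages by -0.11, giving 386 genes higher and 949 lower in place of 501 and 760. Over all genes a pseudocount of 5 CPM called 229 in place of 848 at E15, 130 in place of 854 at E18, 401 in place of 1261 in WT and 735 in place of 1844 in ECKO. Without a filter the genotype comparisons called 1354 and 1490, and with a filter at 5 CPM 551 and 506. Leaving out genes on X and Y, and centring by exon length, were added after seeing the data and changed no count of members called. For X and Y this was fixed in advance: Atp6ap2, the only member with values on either, was called in no comparison. That setting therefore says nothing about the sex difference between libraries. Leaving out a library from the additive fit leaves no residual degree of freedom and was not run. No paired analysis was possible because each group held 1 library; the labels do not say what the numbers in the titles mean.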
